A study of Mus musculus with 10 samples.

Results

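The genes described here encode the machinery that tethers, sorts and fuses endosomes. They comprise the CORVET and HOPS tethers, the Mon1-Ccz1 complex, the ESCRT complexes, retromer with its sorting nexins, endosomal SNAREs, and enzymes that build or remove endosomal phosphoinositides. The 54 members were chosen by gene symbol, from a list of these complexes written with earlier results of these data known. All 54 were measured, among 12855 genes tested, through 122 probe sets, of which 94 passed the filter on dim signals. The mice were males of the C57BL/6 NHsd strain, and their liver RNA was hybridised to Affymetrix arrays, on which a probe set of short probes near the 3' end reports a transcript. Of the 10 arrays, 2 were from mice given phosphate-buffered saline (PBS), 4 from mice given lipid nanoparticles with a control siRNA, and 4 from mice given nanoparticles with siRNAs against the Rab5 genes. The siRNA dose was 1.5 mg/kg by tail vein, and livers were taken on day 5. The labels name the control a non-targeting RNA, whereas the design text names luciferase, and no other set of siRNAs against Rab5 was among the groups. What the loss of Rab5 did and what these siRNAs did by other routes cannot be told apart. The labels number the livers but do not state that they are separate mice, and p-values then cover the spread of these samples alone, which may be technical. The arrays hold whole liver, in which fewer cells of a type and less RNA per cell cannot be told apart.

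Rab5 is the small GTPase of early endosomes. It recruits the CORVET tether and the kinase that makes phosphatidylinositol phosphates on these membranes, and it is exchanged for Rab7 by Mon1-Ccz1 when an endosome matures. ESCRT proteins then bend cargo into internal vesicles, retromer returns receptors to the trans-Golgi network or the cell surface, and HOPS with SNAREs fuses late endosomes with lysosomes. In hepatocytes these steps handle the traffic of many plasma proteins and receptors.

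The targeted genes showed the knockdown in each Rab5 array for Rab5a and Rab5c. Rab5a lay between 8.33 and 8.81 (log2) on the control siRNA arrays and between 6.28 and 7.16 on the Rab5 siRNA arrays, and Rab5c between 9.03 and 9.40 against 6.99 and 7.36. Rab5b, near the median of the table, overlapped (4.12 to 4.49 against 3.85 to 4.39). Array 1 of the Rab5 group stood apart from the rest of its group, at 17.5 on the first principal component against 30.3 to 38.3. On that array Rab5a was the lowest of the group (6.28 against 6.91 to 7.16), and Rab5c the highest (7.36 against 6.99 to 7.28). In each group the array numbered 2 had the highest difference between the 3' and the 5' Gapdh probe sets, a sign of RNA quality (2.58 to 2.86 against 2.15 to 2.38 on the other arrays). Of 12 Kupffer cell and macrophage markers 8 rose and 0 fell with Rab5 siRNA (66.7%), beside 13.8% up and 9.51% down of all genes tested. The lowest of these markers with control siRNA, Marco, was at 6.01. Their mean log2 level per array lay between 8.37 and 8.73 with control siRNA and between 8.79 and 9.36 with Rab5 siRNA, lowest on Rab5 array 1. Of 10 stellate and fibroblast markers 3 rose (30%). Of 8 sinusoidal endothelial markers 3 fell (37.5%, with Clec4g at -0.43, Ptprb at -0.53 and Gpr182 at -0.50) and 0 rose. In the smaller lists, 1 of 5 monocyte and neutrophil markers rose (Plac8, 20%) and 1 of 7 lymphocyte markers fell (Ighm, at -1.38, 14.3%). Of 3 cholangiocyte markers 1 rose (Sox9, 33.3%). No marker list was tested against the shares of all genes. Hepatocyte markers had the highest mean levels, from 12.16 to 12.58 over the 10 arrays. Of these 7 markers 2 fell (28.6%), Tat at -1.37 and Cps1 at -0.35, and Alb, Apoa1, Apob, Ttr and Hnf4a were not called.

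Against the control siRNA, 10 of the 54 members rose and 2 fell with Rab5 siRNA, at an adjusted p under 0.05. This is 22.2% of the members, beside 23.3% of all genes tested (13.8% up and 9.51% down), so the share that changed was near that of the array as a whole. The members that rose were Vps37c, Chmp2a, Chmp2b, Chmp4b, Chmp6, Vps29, Snx1, Stx7, Stx12 and Vamp3, and those that fell were Mon1a and Mtmr4. The median difference over the members was 0.11 on the log2 scale, beside 0.00 over all genes tested, with extremes of -0.47 and 1.10. The values of the 4 Rab5 arrays lay beyond those of all 4 control siRNA arrays for 12 members (22.2%), beside 25% of all genes. After another quantile normalization 8 members rose and 3 fell (24% of all genes called), and with arrays centred on their median 7 rose and 4 fell (24.5%). The count depended on several arrays, and the share of all genes called moved with it. It was 6 without control siRNA replicate 1 (18.7% of all genes). Without Rab5 siRNA replicate 2 it was 6 (17.3%), and without Rab5 siRNA replicate 4 it was 7 (19.8%). Without the arrays numbered 2 of every group it was 2 (Chmp2b and Vps37c), when 12.2% of all genes were called. Without Rab5 siRNA replicate 1 it was 16, 15 up and 1 down, beside 26.8% of all genes. Calls of Mon1a, Vps37c, Chmp2b, Chmp4b and Stx7 held whichever single siRNA array was left out. PBS arrays were not left out singly for this comparison.

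**Figure D1:**
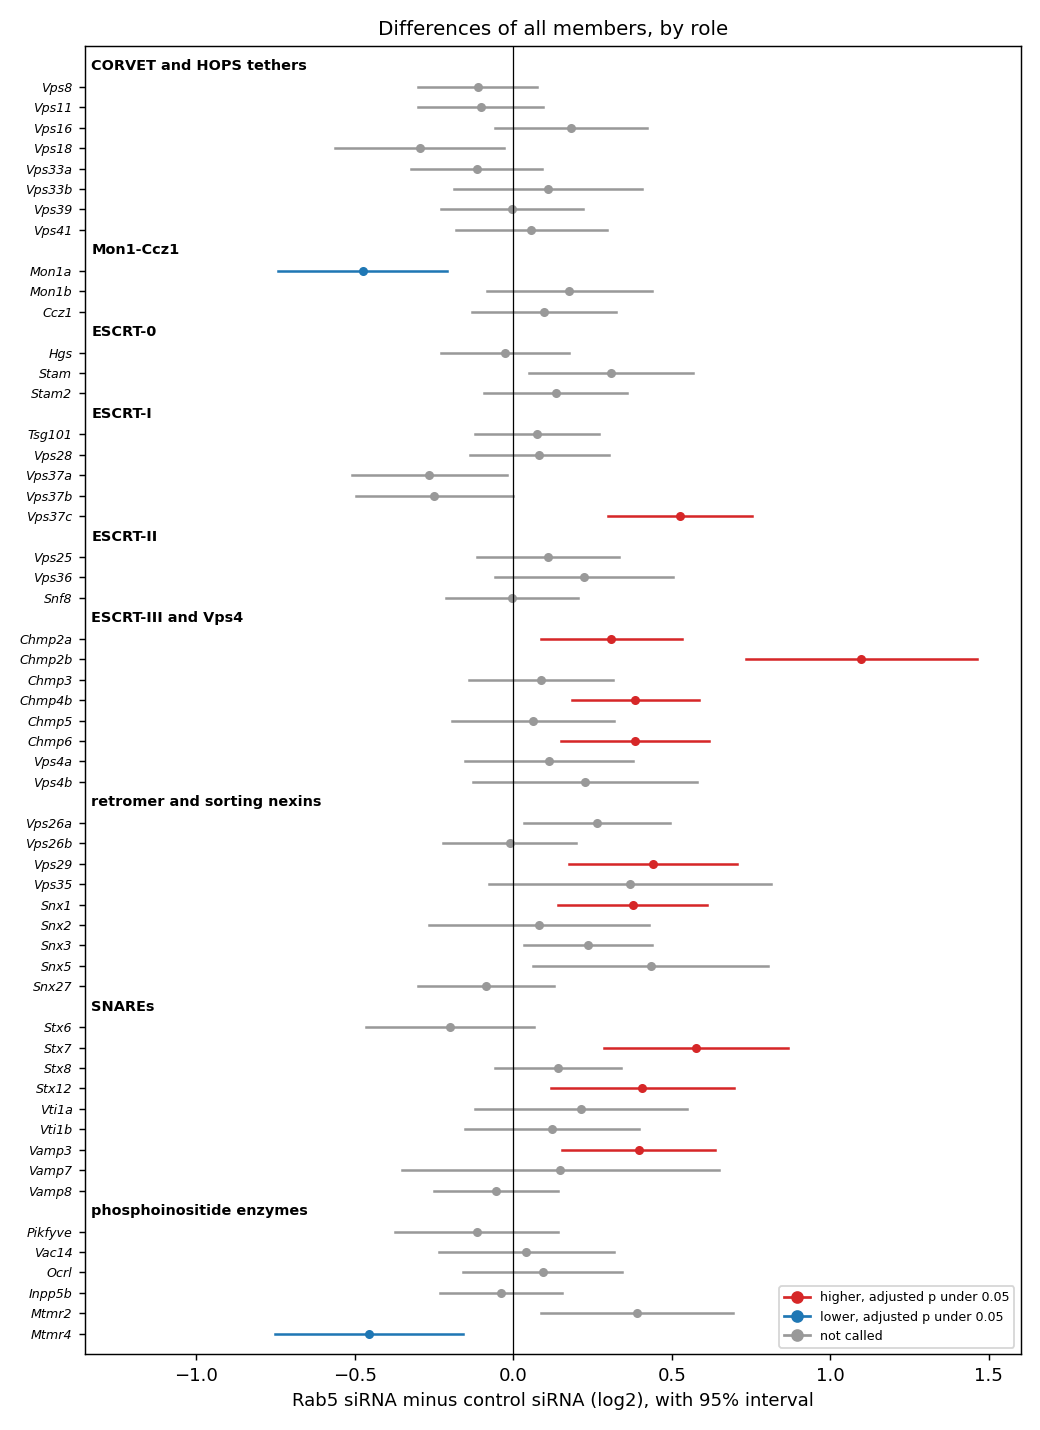
Difference of group means (Rab5 siRNA minus control siRNA, log2) of the 54 members by role, with unadjusted 95% intervals from the linear model (n = 4 arrays per group). The 10 members in red rose and the 2 in blue fell at an adjusted p under 0.05; Chmp2b, at 1.10, lies farthest from 0, and none of the 8 tethers is coloured.

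Tethering proteins hold an endosome and its target membrane together before fusion. None of the 8 CORVET and HOPS genes passed the limma test, beside 23.3% of all genes. At an unadjusted p under 0.05 it was 1 of the 8, beside 35% of all genes. The median difference of the 8 was -0.05. The core subunits shared by both complexes stood at -0.10 for Vps11, 0.18 for Vps16, -0.29 for Vps18 and -0.12 for Vps33a. Vps8, which is particular to CORVET, differed by -0.11 (95% interval -0.30 to 0.08). Its control arrays were very close to each other, at 6.42 ± 0.00865 (SD, n = 4), and the Rab5 arrays at 6.31 ± 0.0938 (SD, n = 4) did not overlap them, yet the adjusted p was 0.392. The HOPS subunits Vps39 (0.00, interval -0.23 to 0.22) and Vps41 (0.06, interval -0.18 to 0.29) lay near 0 with overlapping groups by their brightest probe sets. Dimmer kept probe sets stood at 0.01 for Vps8, 0.21 for Vps39, and -0.0009 and 0.27 for Vps41, none called on its own. Vps33b, a relative of Vps33a that works with another partner, was at 0.11. Vps18 was the largest difference of the group (-0.29, SE 0.123, adjusted p = 0.105). It passed without control siRNA replicate 2 (-0.38, adjusted p = 0.0427) and with arrays centred on their median (-0.36, adjusted p = 0.0480), while its dimmer probe set stood at 0.10.

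Promoters were read for the CLEAR core TCACGTGA, the centre of the element that the lysosomal regulator TFEB is known to bind, since many genes of the late endocytic pathway are known to carry it. The windows come from RefSeq (GRCm38.p6) and run from 250 bases before to 50 after a gene's start, and 40 of the 54 members had an entry. The 8 letters, which read the same on both strands, occurred in 5 of these 40 (12.5%), Vps16, Vps33a, Vps26a, Stx6 and Vac14. They occurred in 1.12% of all 27025 genes with a listed promoter. Those genes were not filtered for signal on the liver arrays, whereas the 40 members were, so the shares come from unlike sets. The E-box letters CACGTG, contained in the core and also the same on both strands, occurred in 6 of the 40 (Snx5 besides those 5). Among all 27025 genes with a listed promoter it was 8.09%. The windows around the core are shown because members of several roles share it and the choice of members did not use it. They lie at chr2:130424281-130424328 (Vps16, plus strand), chr5:123573001-123573048 (Vps33a, minus strand, with the core at 2 places), chr10:62486961-62487008 and chr10:62486723-62486770 (the pair of listed Vps26a starts, minus strand), chr1:155158597-155158644 (Stx6, plus strand) and chr8:110618577-110618616 (Vac14, plus strand, up to the end of its listed window). Each reads 5′ to 3′ with the core in capitals.
Vps16: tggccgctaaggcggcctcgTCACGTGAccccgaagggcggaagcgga
Vps33a: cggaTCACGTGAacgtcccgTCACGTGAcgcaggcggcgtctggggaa
Vps26a, upstream start: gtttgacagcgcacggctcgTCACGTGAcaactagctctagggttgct
Vps26a, downstream start: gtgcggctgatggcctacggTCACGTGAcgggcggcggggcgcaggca
Stx6: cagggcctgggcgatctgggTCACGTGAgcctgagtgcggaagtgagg
Vac14: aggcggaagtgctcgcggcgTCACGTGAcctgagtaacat
None of the 5 genes passed the limma test with Rab5 siRNA, beside 23.3% of all genes. At an unadjusted p under 0.05 it was 1 (Vps26a), beside 35% of all genes. Vps16 stood at 0.18 (SE 0.112, adjusted p = 0.270), Vps33a at -0.12 (adjusted p = 0.427), Vps26a, a subunit of retromer, at 0.26 (SE 0.107, adjusted p = 0.0954), Stx6, a SNARE, at -0.20 (adjusted p = 0.277) and Vac14 at 0.04 (adjusted p = 0.853). Vps26a passed without Rab5 siRNA replicate 1 (0.33, adjusted p = 0.0419) and with array weights (0.27, adjusted p = 0.0466). The motifs and these genes were chosen after values had been seen, and a match is a description of letters in a window.

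Mon1-Ccz1 activates Rab7 on maturing endosomes, and Mon1a and Mon1b are alternative forms of its Mon1 subunit. Mon1a was at 8.01, 7.80, 8.12 and 7.75 on control siRNA arrays 1 to 4 and at 7.73, 7.34, 7.47 and 7.23 on Rab5 siRNA arrays 1 to 4. The groups did not overlap, although Rab5 array 1 lay just under the lowest control. Mon1a fell by 0.47 (SE 0.123, adjusted p = 0.0131). The PBS arrays, at 8.03 and 8.01, lay above the Rab5 arrays, and against PBS the fall was 0.58 (SE 0.151, adjusted p = 0.0174). Mon1b stood at 0.18 (SE 0.120, adjusted p = 0.322), with a dimmer probe set at -0.14, and Ccz1 at 0.10 (SE 0.105). Within the arrays, Mon1a minus Mon1b was 2.65 ± 0.170 with control siRNA and 1.99 ± 0.226 with Rab5 siRNA (SD, n = 4 each), a shift of -0.65. The exact permutation test (two-sided) gave p = 0.0286, the smallest that 4 against 4 arrays allow, and 0.114 after Benjamini-Hochberg adjustment over the 12 pairs of related members compared. Rab7 itself, the substrate of the complex and not a member here, rose by 0.28 (SE 0.0937, adjusted p = 0.0469).

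ESCRT-0 gathers ubiquitinated receptors and passes them to ESCRT-I. None of its 3 members passed the limma test, beside 23.3% of all genes. At an unadjusted p under 0.05 it was 1, beside 35% of all genes. Hgs, the subunit that binds ubiquitin and endosomal lipid, was at 7.79 ± 0.114 on the Rab5 arrays and 7.82 ± 0.0927 on the control siRNA arrays (SD, n = 4 each), with an interval of the difference from -0.23 to 0.18. Its partner Stam stood at 0.31 (SE 0.119, adjusted p = 0.0804). With the replicate number as a block Stam passed (0.31, adjusted p = 0.0460), as it did without Rab5 siRNA replicate 1 (0.36, adjusted p = 0.0474). The dimmer kept probe set of Stam stood at 0.105 (adjusted p = 0.739 over all probe sets). Stam2 was at 0.13, and its 4 kept probe sets ran from -0.26 to 0.34. The probe set at 0.34 was called on its own (SE 0.105, adjusted p = 0.0491 over all probe sets).

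ESCRT-I consists of Tsg101, Vps28, a Vps37 form and a further subunit. Tsg101 (0.07, interval -0.12 to 0.27) and Vps28 (0.08, interval -0.14 to 0.30) lay close to 0, whereas the Vps37 forms differed in sign. Vps37c was at 8.44, 8.12, 8.41 and 8.35 on control siRNA arrays 1 to 4 and at 8.89, 8.76, 9.04 and 8.73 on the Rab5 arrays. All 4 Rab5 arrays lay above all 4 controls and above the PBS arrays (8.38 and 8.31). It rose by 0.53 (SE 0.105, adjusted p = 0.00268), and its other probe set, at 0.52, passed too. Both probe sets are of the kind that can bind related transcripts, and Vps37c had no further probe set. Against PBS the rise was 0.51 (SE 0.129, adjusted p = 0.0146). Vps37a (-0.26, SE 0.113, adjusted p = 0.113) and Vps37b (-0.25, SE 0.115, adjusted p = 0.142) did not pass. Vps37a passed with the replicate block (-0.26, adjusted p = 0.0409), after another quantile normalization (-0.33, adjusted p = 0.0466) and with arrays centred on their median (-0.33, adjusted p = 0.0425). Within the arrays, Vps37a minus Vps37c went from -0.17 ± 0.269 to -0.96 ± 0.293 (SD, n = 4 each) without overlap, a shift of -0.79 (exact permutation p = 0.0286, and 0.114 adjusted over the 12 pairs). Vps37a minus Vps37b moved by -0.02 (exact permutation p = 0.914).

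ESCRT-II bridges ESCRT-I to the membrane-cutting proteins. None of its 3 members passed the limma test, and 0 did at an unadjusted p under 0.05, beside 23.3% and 35% of all genes. Snf8 stood at 0.00 (interval -0.21 to 0.20), Vps25 at 0.11 and Vps36 at 0.22 (SE 0.130, adjusted p = 0.245). A second kept probe set of Vps36 was called on its own (0.48, SE 0.116, adjusted p = 0.0143 over all probe sets), and the mean of its probe sets passed as well (0.35, adjusted p = 0.0302).

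ESCRT-III proteins polymerise into the filaments that pinch off vesicles, and the ATPases Vps4a and Vps4b take these filaments apart. Of the 8 members of this role 4 rose and 0 fell (50%, beside 23.3% of all genes), and the median difference was 0.27. Related genes outside the members did not pass, with Chmp1a at 0.05, Chmp1b at 0.02, Chmp4c at -0.08, Chmp7 at 0.19 and Ist1 at 0.10. The share thus depends on which genes were listed. For 3 of those that rose, Chmp2a, Chmp2b and Chmp4b, the listed promoters are shown, although the rises were of unequal size (0.31, 1.10 and 0.39). They lie at chr7:13034728-13035027 (minus strand), chr16:65562713-65563012 (minus strand) and chr2:154656776-154657075 (plus strand) of GRCm38.p6. Beside the letters TCACGTGA and CACGTG, the ETS letters CCGGAAGT and the NRF1 core CGCATGCG were searched on both strands, and matches are in capitals.
Chmp2a: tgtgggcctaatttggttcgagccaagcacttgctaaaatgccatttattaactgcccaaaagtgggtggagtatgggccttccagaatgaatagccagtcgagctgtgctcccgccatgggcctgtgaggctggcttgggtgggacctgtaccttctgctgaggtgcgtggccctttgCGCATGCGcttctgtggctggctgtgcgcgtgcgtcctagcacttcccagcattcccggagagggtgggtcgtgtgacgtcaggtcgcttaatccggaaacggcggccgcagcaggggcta
Chmp2b: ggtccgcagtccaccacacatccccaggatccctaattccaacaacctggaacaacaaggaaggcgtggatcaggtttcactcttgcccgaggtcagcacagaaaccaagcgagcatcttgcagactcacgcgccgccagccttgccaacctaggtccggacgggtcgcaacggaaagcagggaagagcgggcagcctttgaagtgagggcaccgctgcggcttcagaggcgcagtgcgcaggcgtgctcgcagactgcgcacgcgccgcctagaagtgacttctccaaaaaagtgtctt
Chmp4b: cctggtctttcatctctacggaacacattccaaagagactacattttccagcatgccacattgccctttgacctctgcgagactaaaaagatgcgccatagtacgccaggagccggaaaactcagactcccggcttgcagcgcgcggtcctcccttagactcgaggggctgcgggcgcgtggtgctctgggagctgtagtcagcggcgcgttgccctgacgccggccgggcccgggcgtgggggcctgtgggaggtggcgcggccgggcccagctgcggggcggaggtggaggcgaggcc
The Chmp2a window held the NRF1 core, starting 71 bases before the start of the gene. So did the windows of Vps33a, Stx12 and Mtmr2 among the 40 members, beside 2.07% of all genes with a listed promoter. No match of the 4 motifs lay in the windows of Chmp2b and Chmp4b. The ETS letters occurred in 3 of the 40 members (Mon1b, Tsg101 and Vti1a) and in 4.31% of all genes with a listed promoter.

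Chmp2b, which helps end a filament and recruits Vps4, had the largest difference of the 54 members. It was at 7.44, 8.07, 7.97 and 7.95 on control siRNA arrays 1 to 4 and at 8.51, 9.02, 9.05 and 9.24 on the Rab5 arrays. The lowest Rab5 array, number 1, still lay above all controls and above the PBS arrays (7.81 and 8.12). Chmp2b rose by 1.10 (SE 0.169, adjusted p = 0.000383), 2.14-fold, and its other kept probe set by 1.17 (SE 0.127). Against PBS the difference was 0.99 (SE 0.207, adjusted p = 0.00477). Its close relative Chmp2a was at 8.44, 8.26, 8.58 and 8.61 with control siRNA and at 8.66, 8.78, 8.92 and 8.76 with Rab5 siRNA. The lowest Rab5 value lay just above the highest control, and the PBS arrays, at 8.67 and 8.62, lay at the border of both groups. Chmp2a rose by 0.31 (SE 0.103, adjusted p = 0.0450), the smallest difference called among the members. The call ended without control siRNA replicate 1 (adjusted p = 0.0941) or 2 (0.130) and without Rab5 siRNA replicate 2 (0.0974), 3 (0.127) or 4 (0.0714). It also ended with no filter (0.0572), with another quantile normalization (0.0815), with centred arrays (0.0866) and with only both siRNA groups fitted (0.0588). Within the arrays Chmp2a minus Chmp2b went from 0.62 ± 0.328 to -0.17 ± 0.260 (SD, n = 4 each) without overlap, a shift of -0.79 (exact permutation p = 0.0286, and 0.114 adjusted over the 12 pairs).

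Chmp4b, the main filament subunit, was at 10.06, 10.06, 10.27 and 10.11 on control siRNA arrays and at 10.48, 10.42, 10.64 and 10.51 on Rab5 arrays. The groups were separate, and Chmp4b rose by 0.39 (SE 0.0931, adjusted p = 0.00878), with 0.42 for its second probe set. Chmp6, which links ESCRT-II to Chmp4 proteins, was at 7.41, 7.05, 7.32 and 7.20 with control siRNA and at 7.67, 7.60, 7.79 and 7.46 with Rab5 siRNA. It rose by 0.38 (SE 0.108, adjusted p = 0.0200), a call that ended without control siRNA replicate 2 (0.0625) or Rab5 siRNA replicate 3 (0.0661) and with centred arrays (0.0544). Against PBS neither passed, with Chmp4b at 0.26 (adjusted p = 0.149) and Chmp6 at 0.29 (adjusted p = 0.170). Chmp3 stood at 0.09 by its brighter probe set (adjusted p = 0.590), while its dimmer probe set was called (0.55, SE 0.159, adjusted p = 0.0362 over all probe sets). Chmp5 (0.06), Vps4a (0.11) and Vps4b (0.23, SE 0.163, adjusted p = 0.354) did not pass, and the widest of their intervals, that of Vps4b, reached from -0.13 to 0.58. Other ESCRT genes and deubiquitinases gave 1 call among 19 measured genes (5.26%, below the 23.3% of all genes), the receptor adaptor Eps15 (0.53, SE 0.152, adjusted p = 0.0221), and a median of 0.02.

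**Figure D2:**
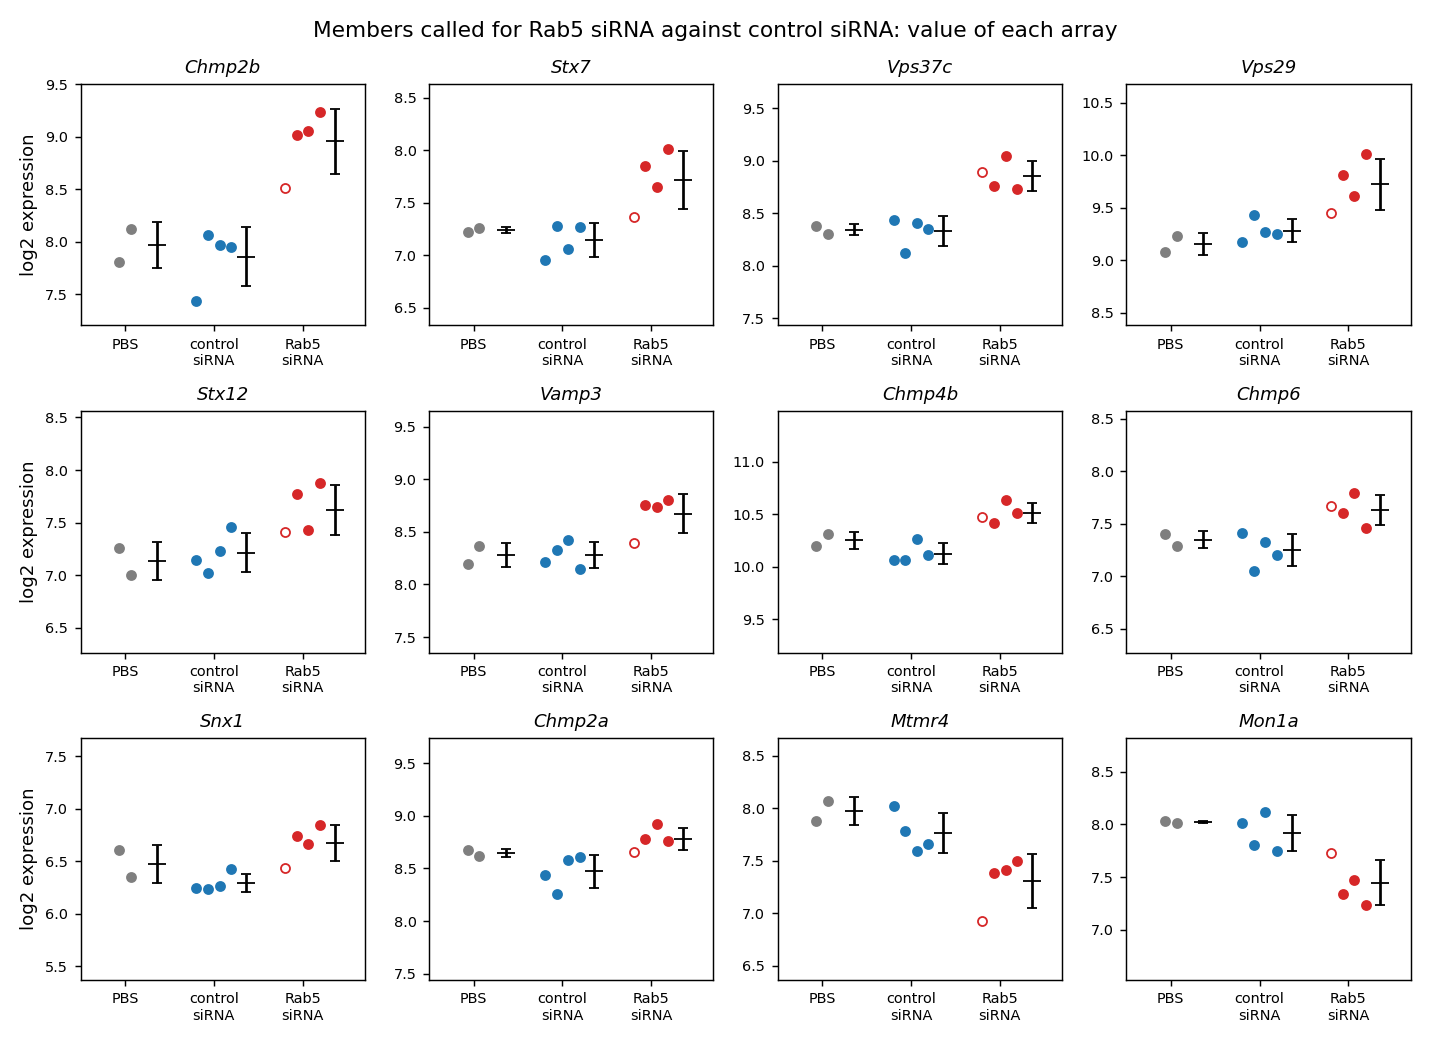
Log2 expression of each array for the 12 members that rose or fell in the comparison of both siRNAs, with PBS (n = 2), control siRNA (n = 4) and Rab5 siRNA (n = 4); bars beside the points are mean and SD, and the open point is Rab5 array 1. Every axis spans the same log2 range; groups of siRNA arrays overlap for Stx12 and Vamp3, and Chmp2b separates most.

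Retromer consists of Vps26, Vps29 and Vps35 and recovers receptors from endosomes, aided by sorting nexins that bend or mark the membrane. Of the 9 members of this role 2 rose and 0 fell (22.2%, near the 23.3% of all genes), with a median of 0.26. Vps29 was at 9.17, 9.43, 9.27 and 9.25 on control siRNA arrays 1 to 4 and at 9.45, 9.81, 9.62 and 10.01 on Rab5 arrays. Rab5 array 1 lay only just above the highest control, while the PBS arrays were at 9.08 and 9.23. Vps29 rose by 0.44 (SE 0.122, adjusted p = 0.0190) against control siRNA and by 0.57 (SE 0.150, adjusted p = 0.0183) against PBS. A second bright probe set agreed in sign (0.39, adjusted p = 0.0491). A dimmer one, at a mean of 5.85 with control siRNA, differed by -0.29 (adjusted p = 0.0873). The mean of the 3 did not pass (0.18, adjusted p = 0.178). The call ended without control siRNA replicate 1 (0.0537) and without Rab5 siRNA replicate 2 (0.0594) or 4 (0.0517).

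Vps35, the scaffold of retromer, was at 8.69 ± 0.497 with Rab5 siRNA and 8.32 ± 0.246 with control siRNA (SD, n = 4 each). The difference of 0.37 (SE 0.206, adjusted p = 0.226) had one of the widest intervals of the group, -0.08 to 0.81, and passed without Rab5 siRNA replicate 1 (0.54, adjusted p = 0.0431). The dimmer kept probe set of Vps35 stood at 0.04 (adjusted p = 0.904 over all probe sets). Vps26b stood at -0.01 (interval -0.22 to 0.20), with its dimmer kept probe set at 0.04. Vps26a minus Vps26b shifted by 0.28 within the arrays, with overlap (exact permutation p = 0.143, and 0.343 adjusted over the 12 pairs).

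Among the sorting nexins, Snx1 was at 6.24, 6.24, 6.27 and 6.43 on control siRNA arrays and at 6.44, 6.74, 6.66 and 6.84 on Rab5 arrays. The groups were separate by the small gap between control array 4 and Rab5 array 1, and the PBS arrays (6.61 and 6.35) spanned that gap. Snx1 rose by 0.38 (SE 0.109, adjusted p = 0.0232), but not against PBS (0.19, adjusted p = 0.377). Its call held without Rab5 siRNA replicate 1 and without control siRNA replicate 4. It ended without control siRNA replicates 1 (0.0565), 2 (0.0584) or 3 (0.0534) and Rab5 siRNA replicates 2 (0.0693), 3 (0.0511) or 4 (0.0649). Snx2, its close relative, was at 0.08 (SE 0.161), and the within-array difference of the pair shifted by 0.30 (exact permutation p = 0.0571, and 0.171 adjusted over the 12 pairs). Snx5, a partner of both, was at 8.03 ± 0.413 with Rab5 siRNA against 7.60 ± 0.119 (SD, n = 4 each), and its 0.43 was the largest difference that did not pass (SE 0.171, adjusted p = 0.0873). Snx5 passed without Rab5 siRNA replicate 1 (0.62, adjusted p = 0.00345), with array weights (0.50, adjusted p = 0.0120) and with the replicate block (0.43, adjusted p = 0.0229). Snx3, a retromer adaptor, was higher on all 4 Rab5 arrays than on any control but did not pass (0.24, SE 0.0930, adjusted p = 0.0860). Snx27, which sends cargo back to the cell surface, stood at -0.08.

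Sorting nexins, WASH and related genes outside the members gave 8 rises and 1 fall among 24 measured genes, 37.5% beside 23.3% of all genes, with a median of 0.12. Those with the largest change were Snx12, a relative of Snx3 (0.67, SE 0.111, adjusted p = 0.000751), Snx6, a further partner of Snx1 and Snx2 (0.61, SE 0.155, adjusted p = 0.0115), Washc4 of the actin-nucleating WASH complex (0.59, SE 0.163, adjusted p = 0.0189) and Snx16 (0.55, SE 0.130, adjusted p = 0.00770). Snx30 fell by 0.33 (SE 0.109, adjusted p = 0.0422). The list was written with earlier results of these data known.

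SNAREs zip together in sets of matched proteins to fuse membranes. Of the 9 members 3 rose and 0 fell (33.3%, beside 23.3% of all genes), with a median of 0.15. Stx7, a syntaxin of late endosomes, was at 6.96, 7.28, 7.06 and 7.27 on control siRNA arrays and at 7.37, 7.85, 7.65 and 8.01 on Rab5 arrays. All Rab5 arrays lay above the controls and above the PBS arrays (7.22 and 7.26), array 1 by the least. Stx7 rose by 0.58 (SE 0.135, adjusted p = 0.00732), and against PBS it was at 0.48 (adjusted p = 0.0655). Its usual partners did not pass. Vti1b stood at 0.12 (SE 0.127), Stx8 at 0.14 (SE 0.0918), Vamp7 at 0.15 (SE 0.232) and Vamp8 at -0.05 (SE 0.0907). The interval of Vamp8 (-0.25 to 0.14) was narrow, whereas that of Vamp7 (-0.35 to 0.65) was the widest of all members. The dimmer kept probe set of Vamp7 stood at -0.06.

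Stx12, a syntaxin of early and recycling endosomes, was at 7.15, 7.02, 7.23 and 7.46 with control siRNA and at 7.41, 7.77, 7.43 and 7.88 with Rab5 siRNA. Control array 4 lay above Rab5 arrays 1 and 3, so the groups overlapped, and the rise of 0.41 (SE 0.134, adjusted p = 0.0429) rested on many arrays. It ended without control siRNA replicates 1 (0.0946), 2 (0.119) or 3 (0.0770), without Rab5 siRNA replicates 2 (0.122) or 4 (0.116), with no filter (0.0510), with another quantile normalization (0.0599), with centred arrays (0.0646) and with only both siRNA groups fitted (0.0501). Its dimmer probe set was at -0.01, and the mean of both at 0.20 (adjusted p = 0.178). Vamp3, the partner SNARE of recycling vesicles, was at 8.21, 8.33, 8.42 and 8.14 with control siRNA and at 8.40, 8.76, 8.74 and 8.80 with Rab5 siRNA. Rab5 array 1 lay below the highest control and the other Rab5 arrays above all of them. Vamp3 rose by 0.40 (SE 0.112, adjusted p = 0.0213), by a probe set of the kind that can bind related transcripts. The probe set without that mark gave 0.30 (adjusted p = 0.0905), and the call ended without control siRNA replicates 1 (0.0544) or 4 (0.0599) and Rab5 siRNA replicates 2 (0.0660), 3 (0.0592) or 4 (0.0573). Stx6 (-0.20, adjusted p = 0.277) and Vti1a (0.21, adjusted p = 0.355), which work between endosomes and the trans-Golgi network, did not pass. The kept probe sets of Stx6 ran from -0.20 to 0.06. Of 21 other SNAREs and their helpers 4 rose and 0 fell (19%, below the 23.3% of all genes), with a median of 0.02. They were the plasma membrane syntaxins Stx3 (0.58, SE 0.118), Stx2 (0.39) and Stx4a (0.38), and Vamp5 (0.52, SE 0.0908).

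Phosphoinositides mark each endosome stage and recruit its proteins. Of 6 enzymes and scaffolds 1 fell and 0 rose (16.7%, beside 23.3% of all genes), with a median of 0.00. Mtmr4, a phosphatase that removes the lipid mark of early endosomes, was at 8.02, 7.78, 7.59 and 7.65 on control siRNA arrays and at 6.93, 7.39, 7.41 and 7.50 on Rab5 arrays. The groups did not overlap, and Rab5 array 1 was lowest by a wide margin. Mtmr4 fell by 0.45 (SE 0.137, adjusted p = 0.0292) against control siRNA and by 0.67 (SE 0.168, adjusted p = 0.0145) against PBS (7.88 and 8.07). The call against control siRNA ended without Rab5 siRNA replicate 1 (0.0564) or 2 (0.0501) and control siRNA replicate 1 (0.0870) or 2 (0.0625). Its other kept probe sets were at -0.49 and -0.36, neither called on its own (adjusted p = 0.0667 and 0.193 over all probe sets). Neither identifier marks shared binding, and by the brighter of the pair Mtmr4 did not pass among genes (-0.36, adjusted p = 0.142). Its relative Mtmr2 went the other way without passing (0.39, SE 0.140, adjusted p = 0.0604). Rab5 array 1 lay with the controls, and Mtmr2 passed without it (0.54, adjusted p = 0.00163), with array weights (0.44, adjusted p = 0.00734), with the replicate block (0.39, adjusted p = 0.0317) and with the stricter filter (0.39, adjusted p = 0.0486). The dimmer kept probe set of Mtmr2 stood at 0.095 (adjusted p = 0.801 over all probe sets). Pikfyve, the lipid kinase of late endosomes, stood at -0.12 (interval -0.37 to 0.14) and its scaffold Vac14 at 0.04. The phosphatases Ocrl (0.09) and Inpp5b (-0.04, interval -0.23 to 0.16) lay near 0, Ocrl at a dim 4.41 with control siRNA, where changes are compressed. Among 35 other phosphoinositide enzymes 2 rose and 3 fell (14.3%, below the 23.3% of all genes), with a median of -0.02. Mtmr11, a relative without known phosphatase activity, went from 4.50 to 7.81, a rise of 3.31 (SE 0.172, adjusted p = 1.02e-07). Atg14, a subunit that directs the lipid kinase complex to autophagy, fell by 0.49 (SE 0.0958), Pip5k1b by 0.47 (SE 0.129), and Mtmr12 rose by 0.42 (SE 0.110).

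**Figure D3:**
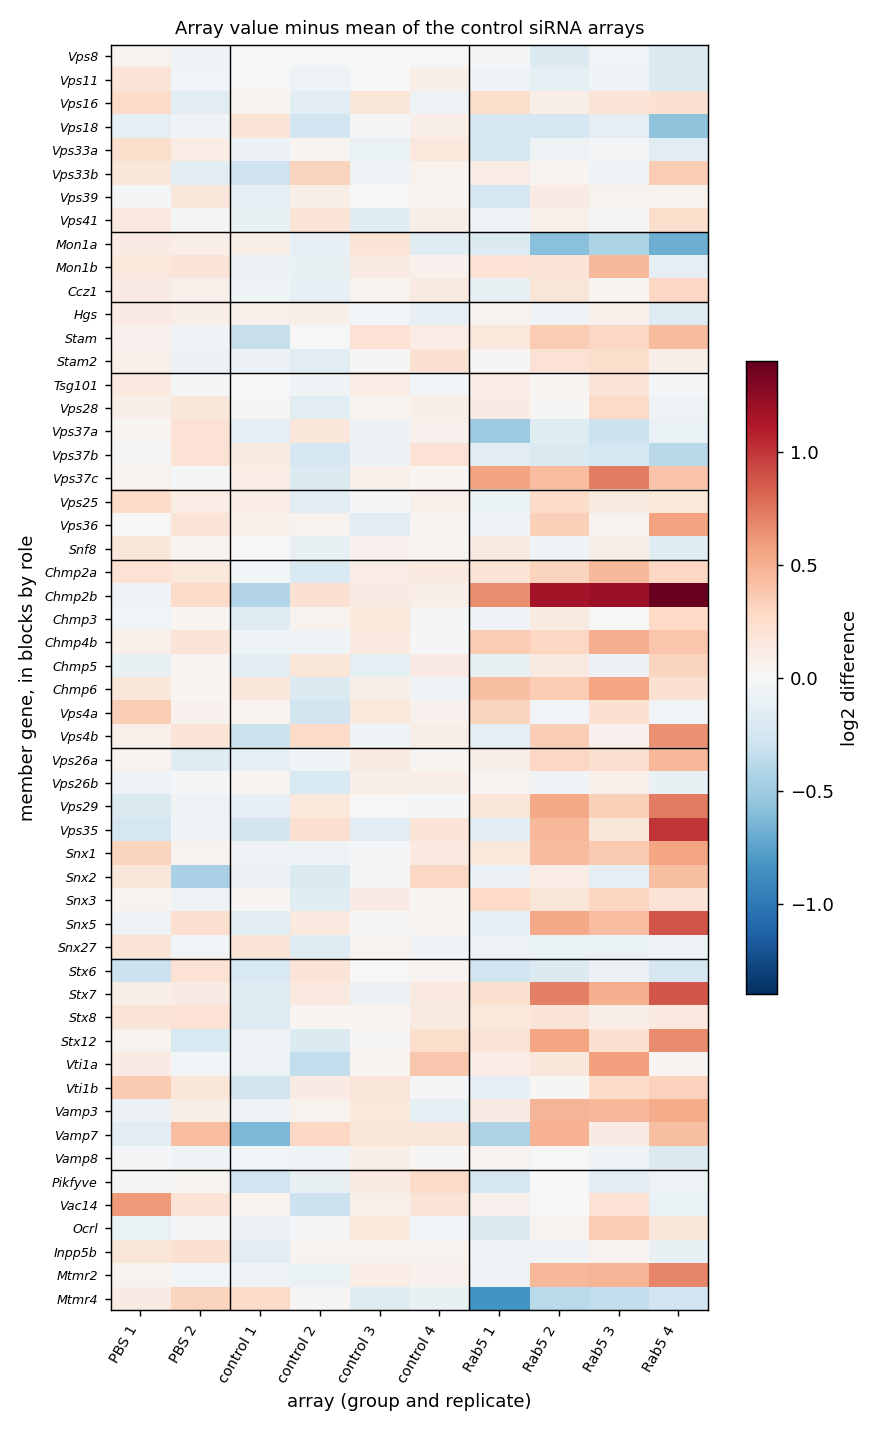
Log2 value of each of the 54 members on each of the 10 arrays, minus the mean of the 4 control siRNA arrays of that member; rows are grouped by role and columns by group. Chmp2b is the darkest row on the Rab5 arrays, and several members that rose are paler on Rab5 array 1.

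The 12 pairs, chosen for the relatedness of their proteins, asked whether close relatives shifted by unequal amounts. The within-array difference separated the groups for 3 pairs, Mon1a with Mon1b, Vps37a with Vps37c and Chmp2a with Chmp2b. No pair passed after adjustment over the 12 (lowest adjusted p = 0.114 by exact permutation), which 4 against 4 arrays allow only when most pairs separate. Vps4a with Vps4b (-0.11), Vti1a with Vti1b (0.09), Stx7 with Stx12 (0.17), Stam with Stam2 (0.18), Vps33a with Vps33b (-0.23) and Ocrl with Inpp5b (0.13) overlapped. Without control siRNA replicate 2, 5 pairs separated, but groups with fewer arrays separate more easily. With arrays of the same number compared, a block added after seeing the data, the difference had the same sign in all 4 comparisons for 5 pairs, the 3 above, Vps26a with Vps26b (0.10 to 0.62) and Snx1 with Snx2 (0.20 to 0.51). The exact permutation test within numbers cannot go below p = 0.125, which each of the 5 reached, or 0.300 adjusted over the 12.

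**Figure D4:**
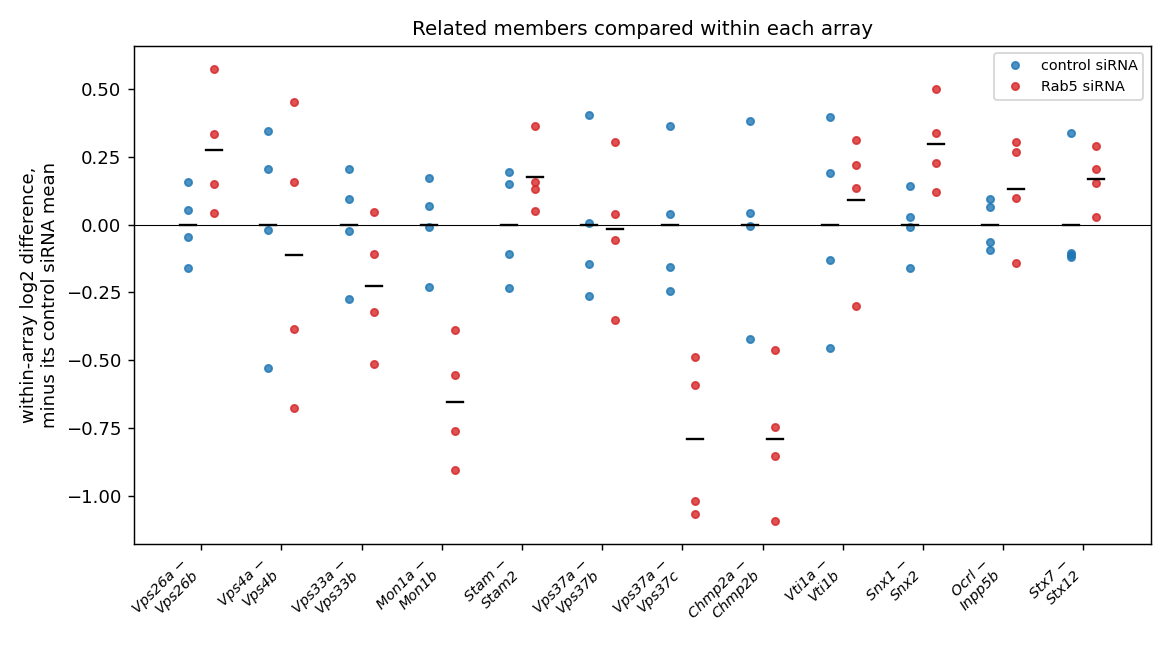
Log2 difference between related members within each siRNA array, minus its mean over the control siRNA arrays (n = 4 points per group, bars are means). Red and blue points are apart for Mon1a with Mon1b, Vps37a with Vps37c and Chmp2a with Chmp2b, and overlap for the other pairs.

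Rab5 array 1 was the lowest of its group for 7 of the 10 members that rose (70%), beside 57% of all genes that rose, and the highest for 1 of the 2 that fell (Mon1a), beside 43.8% of all genes that fell. It was also the array with the lowest Kupffer marker level of its group, 0.20 above the control siRNA mean against 0.73 to 0.77 on the others. The stellate marker level was -0.01 on that array against 0.29 to 0.56. The part of these marker levels and of Rab5 array 1 in the members' values was not tested. Without Rab5 siRNA replicate 1, 11 of the 12 calls held.

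Between control siRNA and PBS, the comparison that asks what nanoparticles with a control siRNA did, limma called 0 of 54 members and 0% of all genes. At an unadjusted p under 0.05 it was 1 member, Vac14 (-0.39, SE 0.157, adjusted p = 0.999), and 554 of 12855 genes. Differences of the members ran from -0.39 to 0.15, with standard errors from 0.106 to 0.284, so with 2 PBS arrays small changes were not detectable. The groups did not overlap for 7 members (13%), beside 13% of all genes. The median over the members was -0.07, beside -0.01 over all genes, and 16 of the 54 lay above 0.

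Rab5 siRNA against PBS gave 3 rises (Vps37c, Chmp2b and Vps29) and 2 falls (Mon1a and Mtmr4), 9.26% of the members beside 17.1% of all genes (9.53% up and 7.59% down). At an unadjusted p under 0.05 it was 17 members, beside 29% of all genes, and the groups did not overlap for 22 members (40.7%), beside 37.8%. The other 7 members called against control siRNA did not pass here (lowest adjusted p = 0.0593, for Stx12). Chmp2a stood at 0.13, Chmp4b at 0.26, Chmp6 at 0.29, Snx1 at 0.19, Vamp3 at 0.39, Stx7 at 0.48 and Stx12 at 0.49. Both comparisons use the same 4 Rab5 arrays. Without Rab5 siRNA replicate 1, 20.6% of all genes were called against PBS. The 5 calls rested on both PBS arrays, with 0 calls without PBS replicate 1 (11 members at an unadjusted p under 0.05) and 1 without PBS replicate 2, and 11 were called without Rab5 siRNA replicate 1. Without PBS replicate 1 the adjusted p was 0.118 for Mon1a, 0.0760 for Vps37c, 0.0856 for Chmp2b, 0.172 for Vps29 and 0.0564 for Mtmr4. Chmp2b alone of the 5 passed without PBS replicate 2. The call of Vps29 against PBS also ended with the mean of its probe sets (0.29, adjusted p = 0.106) and that of Mtmr4 with the brighter of its pair of probe sets that mark no shared binding (-0.21, adjusted p = 0.561), whereas the dimmer of that pair passed (-0.79, adjusted p = 0.0206 over all probe sets).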

How the data were processed

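The deposited table holds log2 expression values of 45101 probe sets on 10 arrays. Per the submitters' processing notes, which give no order, the authors used Affymetrix Expression Console, RMA and Partek 6.6; RMA equalises arrays, so a general shift would not be seen. No detection calls or genome build were used. Control probe sets (64) were left out. Names came from the platform annotation, matched by exact symbol (34945 probe sets with 1 symbol, 932 with several, 9160 unnamed). Probe sets above the table's median (4.33) on at least 2 arrays were kept, and the brightest stood for its gene (12855 genes). Levels are not compared between genes. The fit used limma 3.58.1 (R 4.3.3; lmFit, then eBayes), with group means over the 10 arrays, Benjamini-Hochberg adjustment over all genes and calls at an adjusted p under 0.05. Values for further probe sets came from a fit over all probe sets. The script was tested on simulated data. Deviations of control and Rab5 arrays of the same number correlated (r = 0.391, 0.149, 0.186 and 0.312 across genes). Arrays of unlike number ran from -0.335 to 0.199, with control 4 and Rab5 2 at 0.199. Deviations from a group mean cancel within the group, which pulls unmatched values down where matched ones are up. The values are a weak hint that numbers pair the arrays, and the block was an alternative. Members named were those called, those of related pairs, the largest not called in each role, those called against PBS or with probe sets of differing sign, and up to 4 called genes of each further list. Members and lists were chosen with earlier results of these data known. The number of arrays limits the precision. Promoter sequences are from RefSeq (GRCm38.p6).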

Additional observations from a re-analysis of the deposited data

Results flagged for a closer look

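For 5 of the 108 sets of 4 arrays examined (54 members in each siRNA group), 1 array lay far from the other 3 by Dixon's 95% criterion; chance gives about 1 in 20 such sets. Vps26b was low on control siRNA replicate 2, at 6.71 against 6.97 to 7.01. Snx1 was high on control siRNA replicate 4, at 6.43 against 6.24 to 6.27, next to the lowest Rab5 array. Vamp3 was low on Rab5 siRNA replicate 1, at 8.40 against 8.74 to 8.80. Vamp7 was low on control siRNA replicate 1, at 8.08 against 8.87 or more, and Inpp5b on the same array, at 7.59 against 7.79.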

How the results depend on the processing

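Over 18 alternatives, the 12 members called against control siRNA kept their direction each time, the call holding in 163 of 216 refits and ending in 53. With the replicate block 12 of 12 calls held, the block giving 16 calls (28.9% of all genes) and changing the call of Stam, Vps37a, Snx5 and Mtmr2. Leaving out 1 array gave 6 to 16 called members, 14 to 25 called companion genes (21 with all arrays), 3 to 5 separate pairs (3 with all arrays), and 0 to 11 members called against PBS (5 with all arrays); where 1 PBS array was left, it was assumed to vary like the other groups. Without the arrays numbered 2, with fewer arrays to fit, 2 members were called against control siRNA and 0 against PBS (6 at an unadjusted p under 0.05), 6 companion genes were called and 5 pairs separated. Array weights gave 10 members called against PBS, beside 24.2% of all genes (the cause was not tested). With 1 siRNA array left out, 17.3% to 26.8% of all genes were called against control siRNA. For control siRNA against PBS 0 members were called under each alternative, also with the replicate block. The block added for the related pairs, a different measure, gave 5 pairs of 1 sign in all 4 same-numbered comparisons, against 3 that separated. Groups with fewer arrays separate more easily, so the counts of separate pairs with arrays left out are not like for like. The low count of arrays and the compression of dim signals limit what could be detected: the standard errors of the members ran from 0.0868 to 0.232.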
